A study of Mus musculus with 8 samples.

Results

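The transcripts described here are those of 10 mouse genes that mark basophils or the protease granules of myeloid cells: Mcpt8, Prss34, Cpa3, Fcer1a, Ms4a2, Prg2, Ctsg, Mpo, Elane and Prtn3. They were read from every non-control probe named for one of them, which gave 11 of 55681 probes and 10 of 36095 named features. Each gene had 1 probe except Mpo, which had 2. The genes were chosen by their levels on these same arrays, the contrast of replicate 4 with replicates 1 to 3 included, so those levels are given as a description and support nothing. The samples were plasmacytoid dendritic cells (pDC) from female BALB/c mice, grown in culture from bone marrow precursors under mouse Flt3 ligand and then sorted magnetically and by flow cytometry. The sorted fractions were 4 Sca-1+ and 4 Sca-1- samples with no further treatment named, each hybridised to its own 1-colour (Cy3) Agilent array. The study asked whether Sca-1, the product of Ly6a, separates developmental stages of pDC. The labels do not tell whether the 4 replicates are separate cultures or animals, and the p-values below cover only the variation among these samples, part or all of which may be technical.

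Basophils are rare granulocytes that carry the high-affinity IgE receptor on their surface and, in mice, store the serine proteases mMCP-8 and mMCP-11 in their granules. Cathepsin G, neutrophil elastase, proteinase 3 and myeloperoxidase are made in bulk by granulocyte and monocyte precursors of the bone marrow and packed into azurophil granules, where the serine proteases are activated by cathepsin C. Basophils too arise in the bone marrow, and pDC are not known for granules of either kind. In sorted bulk samples, fewer cells of a type and less RNA per cell cannot be told apart.

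A level below is the log2 processed signal of a probe minus the 75th percentile of that array, so 0 is the signal at that percentile, and levels do not compare one gene with another. "Well above background" is the scanner program's own mark for a spot. Arrays with the same replicate number lay on the same slide, and slide 4 was scanned apart from slides 1 to 3 and read with another version of the extraction protocol. Replicate 4 is therefore also slide 4, and the sample, the slide, the scan and the protocol cannot be told apart. That percentile stood at a processed signal of 396 in Sca-1+ replicate 4, against 166 to 200.4 in Sca-1+ replicates 1 to 3, and 434 in Sca-1- replicate 4, against 152 to 232 in Sca-1- replicates 1 to 3. The share of spots marked well above background ran from 45.9% to 54.9% over the arrays and was highest on that of Sca-1- replicate 4. The sort held in the data: Ly6a was 25.1-fold higher in Sca-1+ samples (level 7.43 ± 0.28 in Sca-1+ and 2.78 ± 0.44 in Sca-1- samples, SD, n = 4 each, limma adjusted p = 0.000625).

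The probe sequences show what was hybridised for Mcpt8 and Prg2, both far lower on the replicate 4 arrays, for the gene whose call depends on the model, and for the second Mpo probe. All are 60 bases long, written 5′ to 3′ in the sense of the transcript with no base marked, and their positions are those of the files (mouse build mm9). The Mcpt8 and Prtn3 probes cover 375 and 817 bases of the genome, more than their own length, so each crosses a splice junction. The remaining probes, whose sequences are not shown, lay at chr17:25436942-25437001 (plus strand) for Prss34, chr3:20115674-20115733 (minus strand) for Cpa3, chr1:175151438-175151497 (minus strand) for Fcer1a and chr19:11691701-11691760 (minus strand) for Ms4a2. Those of the azurophil granule genes lay at chr14:56718795-56718854 (minus strand) for Ctsg, chr11:87617840-87617899 (plus strand) for the first Mpo probe and chr10:79350902-79350961 (plus strand) for Elane. The exon and UTR annotation of these positions was not analysed here.
Mcpt8 probe (chr14:56702300-56702674, minus strand): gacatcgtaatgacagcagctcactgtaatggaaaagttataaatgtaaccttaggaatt
Prg2 probe (chr2:84822799-84822858, plus strand): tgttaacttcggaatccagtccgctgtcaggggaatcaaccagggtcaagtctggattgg
Prtn3 probe (chr10:79343869-79344685, plus strand): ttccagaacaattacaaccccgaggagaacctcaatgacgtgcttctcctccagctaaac
Mpo probe (chr11:87615121-87615180, plus strand): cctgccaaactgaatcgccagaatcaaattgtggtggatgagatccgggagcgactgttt

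The 250 bases before the transcription start are shown for Mcpt8, Prss34 and Cpa3, which were far lower on both replicate 4 arrays, and for Mpo and Elane, which carry the same motif and differed in how far replicate 4 lay from the rest. The sequences are RefSeq's, build GRCm38.p6, which is not the build of the probes, and 9 of the 10 genes were in the table. Capitals mark matches on either strand to the GATA factor motif AGATAA or to the PU.1 motif, spelled GAGGAAGT. A C/EBP factor motif, TTGCNNAA, was searched as well. No 2 of these matches overlapped in the windows shown.
Mcpt8 (chr14:56085198-56085447, minus strand): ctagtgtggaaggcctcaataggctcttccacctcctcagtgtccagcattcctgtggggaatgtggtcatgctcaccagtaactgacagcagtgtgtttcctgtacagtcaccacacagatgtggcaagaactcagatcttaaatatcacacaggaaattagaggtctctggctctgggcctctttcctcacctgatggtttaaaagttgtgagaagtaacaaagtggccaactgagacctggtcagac
Prss34 (chr17:25298144-25298393, plus strand): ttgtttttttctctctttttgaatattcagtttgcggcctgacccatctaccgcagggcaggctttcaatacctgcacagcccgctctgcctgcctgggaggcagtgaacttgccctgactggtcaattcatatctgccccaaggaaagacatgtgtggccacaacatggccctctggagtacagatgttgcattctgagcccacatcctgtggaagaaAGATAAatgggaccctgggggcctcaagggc
Cpa3 (chr3:20242182-20242431, minus strand): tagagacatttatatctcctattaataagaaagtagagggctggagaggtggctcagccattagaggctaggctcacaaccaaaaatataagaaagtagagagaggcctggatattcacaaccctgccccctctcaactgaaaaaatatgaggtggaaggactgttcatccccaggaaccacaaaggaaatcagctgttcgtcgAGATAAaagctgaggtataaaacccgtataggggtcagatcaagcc
Mpo (chr11:87793534-87793783, plus strand): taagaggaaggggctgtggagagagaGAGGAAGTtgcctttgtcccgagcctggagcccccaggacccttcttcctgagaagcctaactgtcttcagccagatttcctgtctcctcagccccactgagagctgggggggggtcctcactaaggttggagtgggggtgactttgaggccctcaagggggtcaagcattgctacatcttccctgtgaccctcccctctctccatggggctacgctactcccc
Elane (chr10:79886062-79886311, plus strand): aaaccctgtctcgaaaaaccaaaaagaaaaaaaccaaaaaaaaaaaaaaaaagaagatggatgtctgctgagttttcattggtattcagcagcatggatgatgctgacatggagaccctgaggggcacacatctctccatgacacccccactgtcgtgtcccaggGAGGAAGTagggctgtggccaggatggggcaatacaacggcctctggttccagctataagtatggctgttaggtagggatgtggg

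AGATAA was present in 4 of the 9 windows (Prss34, Cpa3, Fcer1a and Ms4a2) and in 9.99% of 32851 promoters of the same length. In Prss34 it began 31 bases before the start, in Cpa3 46 and in Fcer1a 92, and Ms4a2 held 3 matches. GAGGAAGT was present in 3 of 9 windows (Elane, Prtn3 and Mpo) and in 2.44% of all promoters, beginning 85 bases before the start in Elane, 95 in Prtn3 and 224 in Mpo. TTGCNNAA was found in Fcer1a alone among the 9, and in 9.56% of all promoters. Mcpt8 and Ctsg held none of the 3 motifs in this window. A match describes letters and is no evidence of binding.

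On the arrays of replicates 1 to 3, the basophil proteases Mcpt8 and Prss34 lay above the 75th percentile of signal in both sorted fractions. On the replicate 4 arrays both lay well below that percentile. Mcpt8 was lower there by 6.53 on the log2 scale in Sca-1+ samples and by 6.41 in Sca-1- samples. Prss34, Prg2, Ctsg, Fcer1a, Mpo and Cpa3 were also lower on both replicate 4 arrays, whereas Elane and Prtn3 differed by 0.89 to 1.44. Between Sca-1+ and Sca-1- samples none of the 9 genes tested passed the unpaired test, where 1.71% of all genes did. With the slide as a block Prtn3 alone was called (limma adjusted p = 0.0452), where 6.22% of all genes were.

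**Figure D1:**
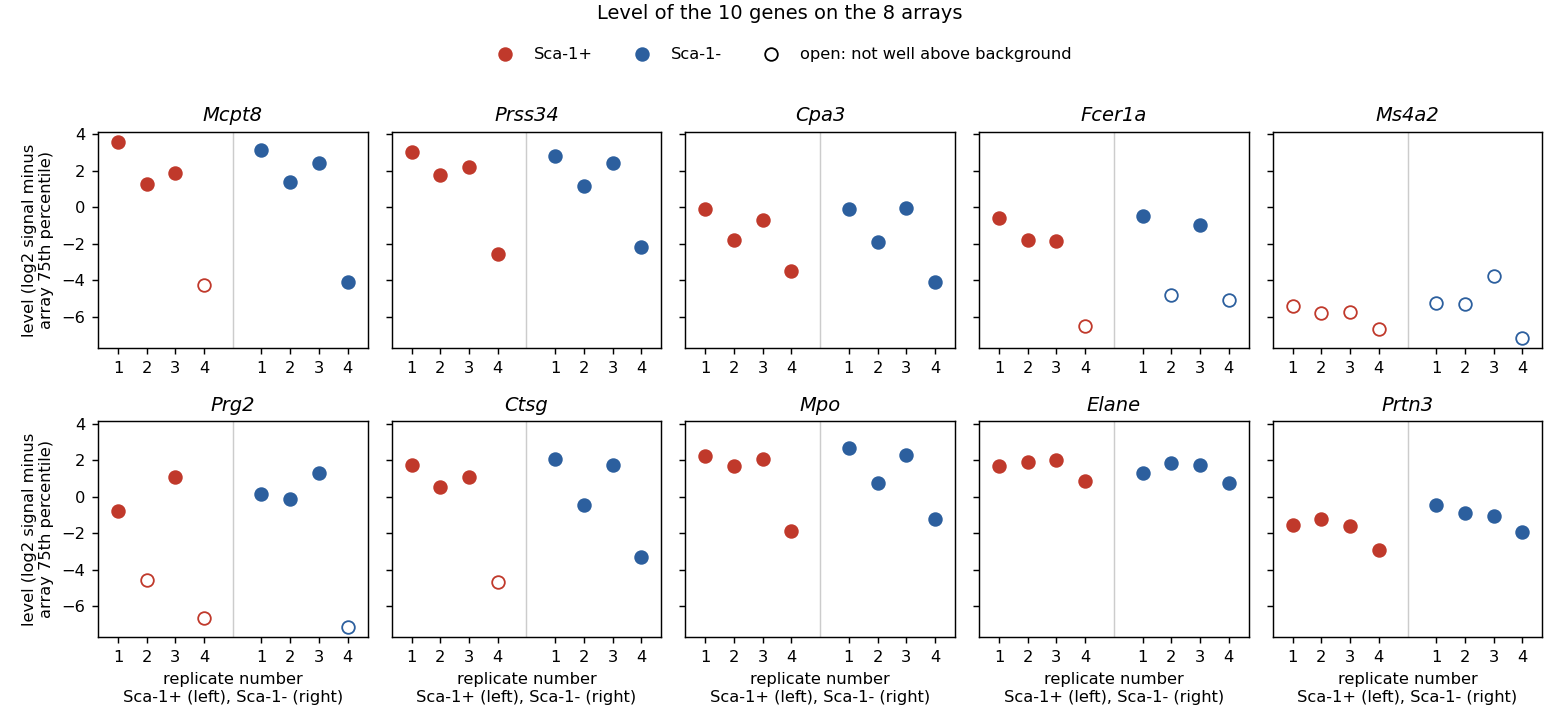
Level (log2 processed signal minus the array's 75th percentile) of each of the 10 genes on each array, with Sca-1+ replicates 1 to 4 on the left of each panel and Sca-1- replicates 1 to 4 on the right; open circles are arrays where the probe was not well above background. For the 9 genes other than Ms4a2, which was open on every array, replicate 4 is the lowest point of both groups.

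Mcpt8 encodes mMCP-8, the protease by which mouse basophils are usually recognised. Its level in Sca-1+ samples was 3.59, 1.28, 1.90 and -4.27, in the order of replicates 1 to 4 that all lists of sample values follow. The level in Sca-1- samples was 3.15, 1.39, 2.43 and -4.09. Replicates 1 to 3 of both groups covered overlapping ranges and both replicate 4 arrays stood far below, the Sca-1+ one not well above background. Replicates 1 to 3 averaged 2.26 ± 1.20 in Sca-1+ and 2.32 ± 0.89 in Sca-1- samples (SD, n = 3 each). By its dim signal, replicate 4 was 92.2-fold lower in Sca-1+ samples (58.0-fold without replicate 1), and it was 85.1-fold lower in Sca-1- samples. Where a replicate 4 probe was not well above background, its fold here and below is an approximate bound. It is set against the higher of its own signal and the lowest signal marked well above background on that array. That limit is not strict: Mcpt8 in Sca-1+ replicate 4 was left unmarked at 20.6, above the lowest marked signal of 16.8. The difference was present before any scaling between arrays, since the processed signal was 20.6 in Sca-1+ replicate 4, against 468 to 2004 in Sca-1+ replicates 1 to 3.

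Prss34 encodes mMCP-11, a tryptase-like protease of mouse basophils. Its level was 3.05, 1.76, 2.21 and -2.53 in the Sca-1+ samples, and 2.80, 1.16, 2.44 and -2.14 in the Sca-1- samples. It was well above background on all 8 arrays, so both low values are measured rather than bounded. Replicate 4 was 29.1-fold lower than the mean of replicates 1 to 3 in Sca-1+ samples and 19.4-fold lower in Sca-1- samples.

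Cpa3, mast cell carboxypeptidase A, is shared by mast cells, basophils and early progenitors. The level was -0.07, -1.77, -0.67 and -3.50 in the Sca-1+ samples, and -0.06, -1.91, -0.0041 and -4.10 in the Sca-1- samples. Replicate 2 lay between replicate 4 and the other two in both groups, and the replicate 4 arrays were again lowest. The difference was 6.33-fold in Sca-1+ and 10.8-fold in Sca-1- samples (16.7-fold without replicate 2).

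Fcer1a and Ms4a2 encode the alpha and beta chains of the high-affinity IgE receptor. The level of Fcer1a was -0.60, -1.79, -1.81 and -6.51 in the Sca-1+ samples, with replicate 4 not well above background and at least 8.90-fold lower. In Sca-1- samples it was -0.46, -4.80, -0.97 and -5.09, and neither replicate 2 nor replicate 4 was well above background. Against the limit described for Mcpt8, the Sca-1- replicate 4 value was 7.29-fold below the mean of replicates 1 to 3. That mean includes the dim replicate 2, so this fold is no bound, and replicate 4 lay only 0.29 below replicate 2. The fold was 4.16 without replicate 1 and 18.8 without replicate 2. Before scaling, the processed signal was higher in Sca-1- replicate 4 (12.7) than in Sca-1- replicate 2 (5.45). Ms4a2 was not well above background on any of the 8 arrays, with measured levels of -6.67 to -5.42 in Sca-1+ and -7.15 to -3.74 in Sca-1- samples, so it was not tested and no fold is given.

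Prg2 encodes eosinophil major basic protein, a granule protein that basophils also make. The level was -0.76, -4.55, 1.10 and -6.61 in the Sca-1+ samples, and 0.14, -0.14, 1.31 and -7.15 in the Sca-1- samples. The probe was not well above background in Sca-1+ replicates 2 and 4 and in Sca-1- replicate 4. Against the limit described for Mcpt8, replicate 4 was 8.87-fold lower in Sca-1+ samples and at least 41.7-fold lower in Sca-1- samples. The Sca-1+ mean of replicates 1 to 3, -1.41 ± 2.88 (SD, n = 3), carries the dim replicate 2, so the Sca-1+ fold is no bound. That fold was 26.4 without replicate 2 and 3.73 without replicate 3.

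Of the azurophil granule genes, Ctsg (cathepsin G) and Mpo (myeloperoxidase, the enzyme that makes hypochlorous acid) were low on the replicate 4 arrays. The level of Ctsg was 1.74, 0.56, 1.09 and -4.68 in the Sca-1+ samples, the last not well above background, and 2.07, -0.46, 1.75 and -3.28 in the Sca-1- samples. Replicate 4 was at least 51.4-fold lower in Sca-1+ and 21.1-fold lower in Sca-1- samples (36.6-fold without replicate 2). For the brighter Mpo probe the level was 2.24, 1.67, 2.06 and -1.85 in Sca-1+ and 2.65, 0.74, 2.31 and -1.19 in the Sca-1- samples. This probe was well above background on all 8 arrays, and replicate 4 was 14.4-fold lower in Sca-1+ and 8.50-fold lower in Sca-1- samples. In Sca-1+ samples replicates 1 to 3 lay close together, and the gap to replicate 4 was 0.862 of the whole range. That is above Dixon's critical value, used here as a mark and not as a test. In 13.3% of all genes some sample of the 4, whichever it was and high or low, stood that far from the rest. The second Mpo probe, printed above, gave -0.52, -0.38, -0.04 and -6.41 in Sca-1+ and 0.53, -1.83, 0.57 and -3.84 in the Sca-1- samples. It ran in the same direction, at least 18.9-fold lower in Sca-1+ replicate 4, where it was not well above background, and 12.1-fold lower in Sca-1- replicate 4 (20.9-fold without replicate 2).

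Elane (neutrophil elastase) and Prtn3 (proteinase 3) are neighbouring genes on chromosome 10, and both were well above background on all 8 arrays. The level of Elane was 1.70, 1.92, 1.99 and 0.89 in the Sca-1+ samples, and 1.31, 1.86, 1.74 and 0.75 in the Sca-1- samples. The level of Prtn3 was -1.52, -1.23, -1.62 and -2.90 in the Sca-1+ samples, and -0.45, -0.91, -1.03 and -1.90 in the Sca-1- samples. Replicate 4 was again lowest in each group, by far less than for the other genes: 1.98-fold in Sca-1+ and 1.85-fold in Sca-1- samples for Elane, and 2.72-fold in Sca-1+ and 2.15-fold in Sca-1- samples for Prtn3. Without scaling between arrays the difference for Elane turned, to 0.11 in Sca-1+ and 0.27 in Sca-1- samples, as did that for Prtn3 in Sca-1- samples, to 0.05. The processed signal of Elane was 731 in Sca-1+ replicate 4, against 541 to 796 in Sca-1+ replicates 1 to 3.

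Over all 19811 genes with a value on every array, the median of replicate 4 minus the mean of replicates 1 to 3 was -0.05 in Sca-1+ and -0.07 in Sca-1- samples. The 1st percentile was -2.39 in Sca-1+ and -2.47 in Sca-1- samples, and 0.379% of genes in Sca-1+ and 0.358% in Sca-1- samples were lower by 3 or more. Of the 9 genes that passed the filter (well above background on at least 4 arrays), 6 lay below each of replicates 1 to 3 by at least 1 in both groups, where 5.88% of all genes did. Those 6 were Mcpt8, Prss34, Cpa3, Prg2, Ctsg and Mpo. None lay above by that much in both groups, where 1.56% of all genes did. All 9 lay below each of replicates 1 to 3 by some amount in both groups, where 36.8% of all genes did. Only 5 of the 9 were well above background on all 8 arrays, and the others passed the filter mainly through the brighter arrays, so nothing is read from the count. The smallest gap among the 6 was 1.73, for Cpa3 in Sca-1+ samples. Just outside, the smaller of the gaps in both groups was 0.87 for Prtn3, 0.56 for Elane and 0.29 for Fcer1a.

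**Figure D2:**
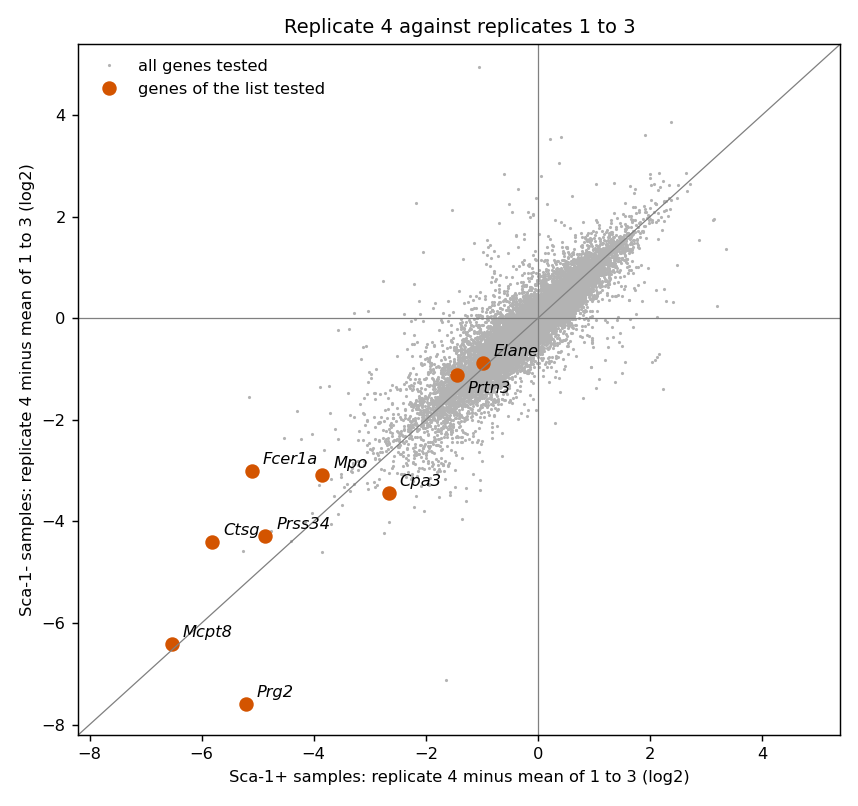
Replicate 4 minus the mean of replicates 1 to 3 (log2), in Sca-1+ samples on the x axis and in Sca-1- samples on the y axis, for all genes tested (grey) and the 9 genes of the list that were tested (orange); the diagonal line marks equal differences. Mcpt8 is at -6.53 and -6.41, and Elane and Prtn3 sit inside the grey cloud.

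The genes also varied among replicates 1 to 3, several of them in the same order. Replicate 2 was the lowest of the 3 in both groups for Mcpt8, Prss34, Cpa3, Prg2, Ctsg and the first Mpo probe, with no overlap in Ctsg between replicate 2 (0.56 in Sca-1+, -0.46 in Sca-1-) and replicates 1 and 3 (1.09 to 2.07). Elane and Prtn3 did not follow that order: in both groups the lowest of the 3 was replicate 1 for Elane and replicate 3 for Prtn3. In Sca-1+ samples replicate 3 was lowest for Fcer1a, level with replicate 2 at -1.81 against -1.79, and replicate 1 for the second Mpo probe. The pooled SD within groups over all 4 replicates was 3.68 for Prg2, 3.35 for Mcpt8, 2.72 for Ctsg and 2.54 for Fcer1a. It was 0.68 for Prtn3 and 0.51 for Elane, and the median over all genes was 0.32.

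Across the arrays of replicates 1 to 3, which share scan and protocol, Pearson's r was 0.98 between Ctsg and Mpo and 0.93 between Mcpt8 and Prss34, but 0.09 between Mcpt8 and Prtn3 and -0.71 between Mcpt8 and Elane (n = 6 arrays on 3 slides). These are descriptions of 6 arrays, and the 2 arrays of a slide are not independent. Among 11164 other named genes well above background on every array, those whose level ran most like the mean of Mcpt8, Prss34, Cpa3 and Fcer1a were Phf20l1, Srp54a, Prpf38b, Tdpoz7 and Eif3j1 (r = 0.99 each over 8 arrays). Those most like the mean of Ctsg, Mpo, Elane and Prtn3 were Prpf38b, Tatdn2, Srp54a, Phf20l1 and Fmnl2 (r = 0.99 to 1.00). Without the 2 replicate 4 arrays, which stand apart, r was 0.93 to 0.99 for the first set and 0.86 to 0.99 for the second (6 arrays). The first set differed far less in size than its basophil genes. Replicate 4 of Phf20l1, the nearest to that profile, lay at -1.07 in Sca-1+ and -0.87 in Sca-1- samples against the mean of replicates 1 to 3. In the second set Tatdn2 lay at -2.19 in Sca-1+ and -1.97 in Sca-1- samples, further than Elane and Prtn3. The others of that set lay between -1.29 and -0.81.

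In the unpaired fit no difference between Sca-1+ and Sca-1- pDC was detectable for any of these transcripts. Of the 9 genes tested, 0 were called at an adjusted p under 0.05 (limma on all 19818 genes, unpaired, Benjamini-Hochberg), where 1.71% of all genes were called, and 0 had an unadjusted p under 0.05. The values of both groups overlapped for all 9, where those of 6.95% of all genes did not, and the adjusted p was 1.00 for 8 of them and 0.755 for Prtn3. The unpaired intervals include the distance of replicate 4 from the rest of each group. For Mcpt8 the difference was -0.09 ± 2.00 (SE), with a 95% interval of -4.67 to 4.49. With the slide as a block the interval for Mcpt8 narrowed to -0.49 to 0.31, and within slides 1 to 4 the difference was 0.44, -0.10, -0.53 and -0.18. The sign differed between slides, and both samples of slide 4 were low together.

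For Prss34 the difference was 0.05 ± 1.42 (SE), and within slides 1 to 4 it was 0.24, 0.59, -0.24 and -0.38. The same quantity for Cpa3 was 0.01 ± 1.04, and within slides -0.01, 0.14, -0.67 and 0.59. With the slide as a block the 95% interval was -0.39 to 0.50 for Prss34 and -0.49 to 0.52 for Cpa3, so differences beyond those sizes lay outside it. For Fcer1a (0.15 ± 1.52) and Prg2 (-1.25 ± 2.20) slide 2 alone gave 3.01 and -4.41, and in each case one of the 2 samples of that slide was not well above background. Ctsg differed by -0.34 ± 1.63 and Mpo by -0.10 ± 1.11, and both were higher in the Sca-1+ sample on slide 2 and lower on the other 3 slides. These genes give no common direction by Sca-1.

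Elane and Prtn3, whose replicates lay closer together, had narrower intervals. Elane was higher in the Sca-1+ sample on 4 of 4 slides, by 0.39, 0.06, 0.25 and 0.14, with a mean difference of 0.21 ± 0.32 (SE) and a 95% interval of -0.52 to 0.94. It did not pass with the slide as a block either (adjusted p = 0.218). Prtn3 was lower in the Sca-1+ sample on 4 of 4 slides, by differences of -1.07, -0.33, -0.59 and -0.99, with a mean of -0.74 ± 0.42 (SE) and a 95% interval of -1.70 to 0.21. With the slide as a block Prtn3 fell in Sca-1+ samples (adjusted p = 0.0452, limma, 95% interval -1.10 to -0.38), the only one of the 9 called in that fit, where 6.22% of all genes were called and 4.12% were called lower. Without both replicate 4 samples and unpaired, Prtn3 differed by -0.66 with an adjusted p of 0.115. The Sca-1+ sample occupied array position 2 and the Sca-1- sample position 1 throughout, so position and group cannot be told apart. The median difference was 0.03 over the 4 basophil genes tested and -0.22 over the 4 azurophil granule genes, beside 0.03 over all genes.

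**Figure D3:**
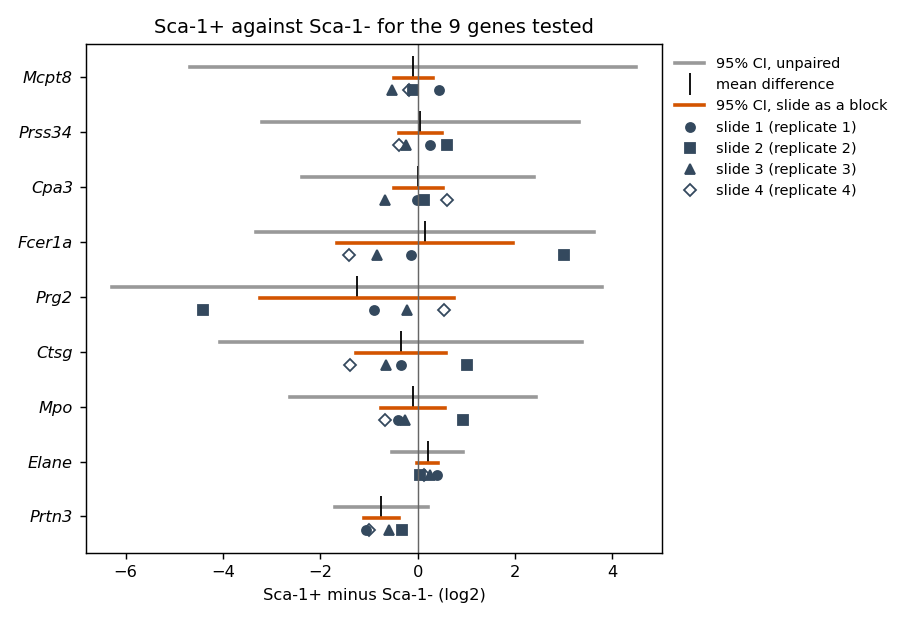
Sca-1+ minus Sca-1- level (log2) of the 9 genes tested: the black tick is the mean difference, the grey bar its 95% interval in the unpaired fit, the orange bar the interval with the slide as a block, and the symbols are the differences within slides 1 to 4. Prtn3 is the gene whose blocked interval (-1.10 to -0.38) lies wholly below 0.

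Other genes of the same cells and pathways were read from lists of markers, of which 13 of 20 basophil and mast cell genes passed the filter. None of the 13 was called between Sca-1+ and Sca-1- samples, unpaired (1.71% of all genes) or with the slide as a block (6.22%). Alox5 had the largest difference of the 13, Sca-1+ minus Sca-1- at -2.12 ± 0.45 (SE), and was lower in the Sca-1+ sample on 4 of 4 slides. Its groups did not overlap, as in 6.95% of all genes, and its limma adjusted p was 0.0672 unpaired and 0.0551 blocked. On both replicate 4 arrays 4 of the 13 lay below replicates 1 to 3 by at least 1, as did 5.88% of all genes: Hdc, Gata2, Il1rl1 and Ptgs1. Hdc, the histidine decarboxylase that makes histamine, had levels of -0.46, -2.63, -1.12 and -6.66 in Sca-1+ and -0.95, -2.32, -0.75 and -5.92 in the Sca-1- samples. It followed the order seen for Mcpt8, with replicate 4 lowest and replicate 2 next in both groups. Gata2, a transcription factor needed for basophil and mast cell development, had levels of -1.54, -3.97, -3.43 and -6.83 in Sca-1+ and -2.08, -3.55, -2.34 and -7.26 in the Sca-1- samples, and was well above background on 2 arrays of each group. The replicate 4 difference of Il1rl1, the IL-33 receptor, was -2.91 in Sca-1+ and -2.76 in Sca-1- samples. Ptgs1, cyclooxygenase 1, differed by -1.76 in Sca-1+ and -2.38 in Sca-1- samples. These 4 genes were well above background on 4 to 6 of the 8 arrays. The differences therefore include values not well above background, which do not measure a level.

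The list did not run one way. Values not called levels are, from here on, replicate 4 minus the mean of replicates 1 to 3 on the log2 scale. Scaling shifts all probes of an array alike. It took Elane from 0.11 to -0.99 in Sca-1+ and from 0.27 to -0.89 in Sca-1- samples, so values near -1 depend on it. The beta receptor chains Csf2rb and Csf2rb2 and the stem cell factor receptor Kit were not lower in replicate 4. Their values were 0.59, 0.76 and 1.09 in Sca-1+ and 0.57, 0.76 and 1.30 in Sca-1- samples. Il3ra, the IL-3 receptor alpha chain, was at -0.87 in Sca-1+ and -0.89 in Sca-1- samples, and Mitf at -0.68 in Sca-1+ and -0.56 in Sca-1- samples. Rab44, named after its values were seen and well above background on 6 of the 8 arrays, was at -5.15 in Sca-1+ and -1.55 in Sca-1- samples. Il4, Il13, Cd200r3 and Hgf were well above background on no array. Sums of linear levels, here and below, weight each gene by its probe signal, so they compare arrays and not genes. The summed linear level of the list was highest in replicate 4 of both groups, at 160.0 in Sca-1+ and 161 in Sca-1- samples, against 100.5 to 113 in Sca-1+ and 97.9 to 116 in Sca-1- replicates 1 to 3. Csf2rb and Csf2rb2 made up 86.7% to 96.5% of that sum. Without them it was 5.57 in Sca-1+ replicate 4, against 7.75 to 11.98 in Sca-1+ replicates 1 to 3, and 12.4 in Sca-1- replicate 4, against 10.3 to 15.4 in Sca-1- replicates 1 to 3.

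Of 9 mast cell granule proteases, Mcpt1, Mcpt2, Mcpt4, Mcpt9, Cma1, Tpsab1, Tpsg1 and Gzmb were well above background on no array. The ninth, Tpsb2, a mast cell tryptase, was well above background on all 8 arrays. It differed in replicate 4 by -1.09 in Sca-1+ and -1.26 in Sca-1- samples, values of a size that depends on the scaling. Of 5 eosinophil genes tested, Ear2, an eosinophil-associated ribonuclease, lay below by at least 1 in both groups, as did 5.88% of all genes. Its values were -4.41 in Sca-1+ and -4.38 in Sca-1- samples. Ear2 was well above background on 5 of the 8 arrays, so these include values that do not measure a level. Its levels in Sca-1+ replicates 1 to 3, -1.30, -5.56 and -0.58, were lowest in replicate 2, as were those of Prg2. In Sca-1- replicates 1 to 3 its levels were -2.65, -2.32 and -0.25, lowest in replicate 1, where Prg2 was lowest in replicate 2. Ear10, well above background on 4 of the 8 arrays, was at -2.75 in Sca-1+ and -2.02 in Sca-1- samples. Epx, the eosinophil peroxidase, was well above background on no array, and Ccr3, the eotaxin receptor, was higher in replicate 4 by 0.81 in Sca-1+ and 1.20 in Sca-1- samples.

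Among 11 neutrophil and granulocyte precursor genes tested, Fcnb (ficolin B) lay below by at least 1 in both groups, as did 5.88% of all genes. It was at -1.36 in Sca-1+ and -1.42 in Sca-1- samples. Cebpa, a transcription factor of granulocyte and monocyte precursors, was at 0.34 in Sca-1+ and 0.47 in Sca-1- samples. S100a9, a calprotectin subunit, was at -1.24 in Sca-1+ and 0.31 in Sca-1- samples, and this contrast between groups was not tested. Mmp9 and Cxcr2 were well above background on no array. The summed level of the list was 168 in Sca-1+ replicate 4, against 271 to 309 in Sca-1+ replicates 1 to 3, and 138 in Sca-1- replicate 4, against 262 to 299 in Sca-1- replicates 1 to 3. Csf3r, the G-CSF receptor, made up 97.5% to 99.1% of that sum. Without it the sum was 1.91 in Sca-1+ replicate 4, against 3.14 to 4.31 in Sca-1+ replicates 1 to 3, and 3.50 in Sca-1- replicate 4, against 2.58 to 5.33 in Sca-1- replicates 1 to 3. Of 7 monocyte genes tested, F13a1, the coagulation factor XIII A chain, was lower by at least 1 in both groups (-3.91 in Sca-1+ and -3.28 in Sca-1- samples), whereas Lyz2, a lysozyme of macrophages, was at 0.41 in Sca-1+ and 3.58 in Sca-1- samples. No gene of these 3 lists was called between Sca-1+ and Sca-1- samples in the unpaired fit, where 1.71% of all genes were. In the blocked limma fit, which called 6.22% of all genes, Fcnb (Sca-1+ minus Sca-1- difference 0.52, adjusted p = 0.0275) and Ly86 (0.48, adjusted p = 0.0461) were called higher in Sca-1+ samples. Csf1r, the M-CSF receptor (-1.19, adjusted p = 0.00637), and F13a1 (-1.49, adjusted p = 0.0423) were called lower. Their part in the replicate 4 values of the 10 genes was not tested.

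The markers of pDC were present throughout, with 15 of 15 well above background on all 8 arrays. Siglech, a pDC surface lectin, was the only one lower by at least 1 in both groups, as were 5.88% of all genes. It was at -1.16 in Sca-1+ and -1.13 in Sca-1- samples. Values of that size depend on the scaling between arrays. The summed level of the list was 2441 in Sca-1+ replicate 4, against 2847 to 3104 in Sca-1+ replicates 1 to 3, and 2092 in Sca-1- replicate 4, against 2372 to 2926 in Sca-1- replicates 1 to 3. Without its 2 genes of highest level, Irf8 and Siglech, the sum was 1605 in Sca-1+ replicate 4, against 1490.5 to 1568 in Sca-1+ replicates 1 to 3, and 1354 in Sca-1- replicate 4, against 1103 to 1505 in Sca-1- replicates 1 to 3. No pDC gene was called unpaired, where 1.71% of all genes were. With the slide as a block 4 of the 15 were called, where 6.22% of all genes were. Each was higher in Sca-1+ samples: Irf7, Ccr9, Tlr7 and Lag3 (differences 0.55 to 0.94). Among conventional dendritic cell genes, Clec9a, a receptor for dead cells, was at -3.29 in Sca-1+ and -2.87 in Sca-1- samples, and Itgax (CD11c) at 0.29 in Sca-1+ and 0.10 in Sca-1- samples. None of them was called unpaired, where 1.71% of all genes were. With the slide as a block, which called 6.22% of all genes, Zbtb46 was called lower (difference -1.20) and Sirpa higher (0.54) in Sca-1+ samples. Of 3 T and NK cell genes tested, Cd3e alone lay below by at least 1 in both groups, where 5.88% of all genes did. Its values were -1.69 in Sca-1+ and -1.42 in Sca-1- samples. Cd3d and Cd3g were well above background on no array. None of the 3 B cell genes or of the 1 erythroid gene tested lay below by at least 1 in both groups.

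**Figure D4:**
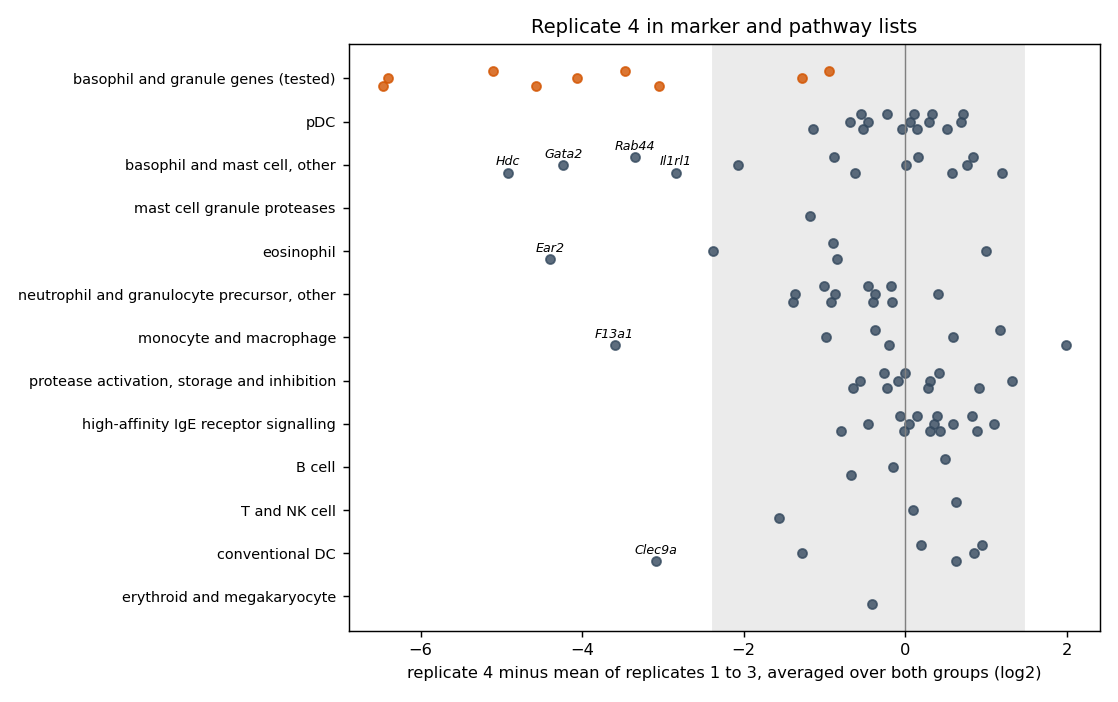
Replicate 4 minus the mean of replicates 1 to 3, averaged over both groups (log2), for the tested genes of the list (orange, top) and of each marker or pathway list (dark points); the grey band spans the 1st to the 99th percentile of all genes, -2.38 to 1.47. In the basophil and mast cell list Hdc, Gata2, Rab44 and Il1rl1 lie left of the band, and most pDC and IgE receptor signalling genes lie near 0.

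All 14 genes of high-affinity IgE receptor signalling passed the filter. In the unpaired fit 0 were called by Sca-1, where 1.71% of all genes were. Below by at least 1 in both groups lay 0 of them, where 5.88% of all genes did. Fcer1g, the gamma chain that the IgE receptor shares with other Fc receptors, had levels of 6.52, 6.43, 6.31 and 6.08 in Sca-1+ and 6.78, 6.81, 6.70 and 6.18 in the Sca-1- samples. The gamma chain was well above background on all 8 arrays, where the alpha chain was on 5 and the beta chain on none. Plcg2, Vav1 and Pik3cd were at 0.43, 0.12 and 0.01 in Sca-1+ and 0.36, 0.17 and 0.08 in Sca-1- samples. The blocked fit called 1 of the 14, where 6.22% of all genes were called, the kinase Fyn (Sca-1+ minus Sca-1- difference 0.54, adjusted p = 0.0352).

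Of 11 genes for the activation, storage and inhibition of granule proteases, 2 were called between the groups, both lower in Sca-1+ samples, where 1.58% of all genes were called lower. Serpinb1a, an inhibitor of elastase, cathepsin G and proteinase 3, had levels of -0.71, -0.70, -0.79 and -0.40 in Sca-1+ and 0.30, 0.06, 0.09 and 0.44 in the Sca-1- samples. The groups did not overlap, and the Sca-1+ minus Sca-1- difference was -0.87 ± 0.15 (SE, limma adjusted p = 0.0252). Cst7, cystatin F, which inhibits the activating protease cathepsin C, had levels of -0.16, -0.25, 0.19 and -0.08 in Sca-1+ and 1.22, 0.63, 1.07 and 0.80 in the Sca-1- samples. Its groups did not overlap either, and the same difference was -1.003 ± 0.17 (SE, limma adjusted p = 0.0277). The blocked fit called 4 of the 11, where 6.22% of all genes were called, Serpinb9 and Slpi beside those 2. Slpi, an inhibitor of elastase and cathepsin G, differed between the groups by -0.68 (blocked adjusted p = 0.0414), and Serpinb9, an inhibitor of granzyme B, by 0.76 (blocked adjusted p = 0.0315).

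Ctsc, cathepsin C itself, was higher on both replicate 4 arrays, where Ctsg, Elane and Prtn3 were lower. Without scaling between arrays Elane was not lower there in either group, nor was Prtn3 in Sca-1- samples. The level of Ctsc was 2.76, 3.01, 3.07 and 4.11 in Sca-1+ and 2.31, 2.44, 2.65 and 3.94 in the Sca-1- samples. Replicate 4 was the highest array of both groups, by 1.17 in Sca-1+ and 1.48 in Sca-1- samples over the mean of replicates 1 to 3. Ctsc was the 1 gene of the list above by at least 1 in both, as were 1.56% of all genes. Srgn, the proteoglycan serglycin that holds proteases in granules, was at -0.16 in Sca-1+ and 0.16 in Sca-1- samples.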

How the data were processed

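RNA of 4 Sca-1+ and 4 Sca-1- pDC samples was amplified and Cy3-labelled with a kit for small inputs, then hybridised to 1-colour arrays, per the labels' protocols. Descriptions of the samples mention a further polyA RNA amplification, whose relation to that kit the sources used here do not give. Per the file headers, the authors extracted spot intensity on a linear scale by means of Agilent Feature Extraction, release 10.7.3.1, on an mm9 design. The processed intensity as deposited has had background subtracted, and the spot marks (well above background, saturated, outlier, control) were set in the same step. A value table deposited for the series gives log2 values made by the authors (column median 3.90, 22 values missing per column), each column tracking its own array at r = 0.998 to 1.00. The columns have equal quartiles, and the steps behind them are not stated.

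Of the 62976 spots on an array, 59305 were non-control. Control spots and 105 to 162 outlier spots per array were left out, 0 spots were saturated, repeat spots were averaged as log2 values, and the array's 75th percentile over probes was subtracted. Where several probes carried 1 of the 36095 feature names, the one of highest mean level was used. The 19818 genes well above background on at least 4 arrays were fitted together by lmFit and eBayes of limma 3.58.1 (R 4.3.3, data.table version 1.17.8; unpaired, two-sided), with Benjamini-Hochberg adjustment over all of them and a threshold of 0.05. A total of 19811 of these had a value on every array and were used for replicate 4. The fit was tested on simulated data. Arrays carry no depth, so their number limits the precision. No 2 arrays held identical values, and the highest correlation between arrays was 0.991.

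Groups and replicate numbers came from the sample titles. Same-numbered samples share a slide, per the file headers, and their deviations from the group means correlated at 0.44, 0.43, 0.64 and 0.89 for replicates 1 to 4. Samples with different numbers among replicates 1 to 3 correlated at 0.12 to 0.54 as well. The blocked fit is given for a result whose call it alters. The 10 genes, the marker lists and the tests were chosen with earlier results of these data known. The planned count was of genes above replicates 1 to 3 in replicate 4, and the mirrored count below was added after the values were seen. Named list genes are up to 4 of each list with the highest mean level, those called, those past the replicate 4 limit, and those in a count of 5 or fewer. Alox5, Kit, Rab44, Ear10, Lyz2, the genes called only with the block and some others fall outside that rule and were named after their values were seen. Alternatives were the scaling, background correction, filter, probe rule, the authors' table, the block and leaving out samples. Figures used matplotlib 3.10.9 under Python 3.11.15, with pandas 2.3.3 and numpy 2.4.6.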

Additional observations from a re-analysis of the deposited data

Results flagged for a closer look

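Of 18 sets of 4 samples (9 genes in 2 groups, 1 probe per gene), 1 had a sample far from the other 3 in relation to the whole range. For Mpo in Sca-1+ samples the gap between replicate 4 and the nearest other sample was 0.862 of the range, above Dixon's 95% critical value for 4 samples. The levels were 2.24, 1.67, 2.06 and -1.85 in replicates 1 to 4. The second Mpo probe, outside the 18 sets, gave 0.925 in Sca-1+ samples, with replicate 4 lowest and not well above background. The genes were chosen with replicate 4 in view, so the ratio describes the values and is no test. The nominal rate of about 1 in 20 sets does not apply to them. Of all genes, 13.3% had such a sample in the Sca-1+ group, whichever replicate it was and whether high or low. For Prg2 in Sca-1- samples the gap was 0.828 of the range, just short of that value. The ratio is small where replicates 1 to 3 spread widely, as for Mcpt8 (0.706 in Sca-1+ and 0.756 in Sca-1- samples). The slide, scan and extraction protocol of replicate 4 cannot be told apart from the sample.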

How the results depend on the processing

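None of the 9 genes was called between Sca-1+ and Sca-1- samples under any of the alternatives run except the replicate block (slide as a block), where 1 was called, Prtn3 (-0.74, adjusted p = 0.0452). The replicate block moved the count over all genes to 1233, the fit with no filter gave 182 and the fit without both replicate 4 samples 879, against 339 in the main analysis. Leaving out 1 sample at a time gave 163 to 463, the lowest without Sca-1- replicate 2 and the highest without Sca-1- replicate 4. The authors' table gave 333.

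The sign of uncalled differences turned in several settings, and the cause was not tested. Cpa3 was at -4.98e-05 with quantile normalization, -0.075 with normexp and -0.0020 in the authors' table. Without both replicate 4 samples Cpa3 was at -0.18, Ctsg at 0.01 and Mpo at 0.09. Leaving out 1 sample at a time, lowest without Sca-1- replicate 4 and highest without Sca-1+ replicate 4 for each gene, gave -1.69 to 1.54 for Mcpt8, -1.02 to 1.27 for Prss34, -0.85 to 0.68 for Cpa3 and -0.60 to 1.43 for Fcer1a. It gave -3.15 to 0.053 for Prg2, -1.44 to 1.11 for Ctsg, -0.87 to 0.87 for Mpo and -0.013 to 0.46 for Elane, and Prtn3 kept its sign at -1.02 to -0.38. The median over the 4 azurophil granule genes spanned -0.94 to 0.66, with 0.66 when Sca-1+ replicate 4 was left out, and that over the basophil genes -0.93 to 1.35.

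Replicate 4 was below the mean of replicates 1 to 3 for each of the 9 genes that an alternative kept, in both groups, under each alternative except the processed signal with no scaling between arrays (added after seeing the data). There Elane was at 0.11 in Sca-1+ and 0.27 in Sca-1- samples and Prtn3 at 0.050 in Sca-1- samples. The basophil median was then -3.89 in Sca-1+ and -2.70 in Sca-1- samples, and the granule median -1.55 in Sca-1+ and -0.94 in Sca-1- samples. The main medians were -4.99 (Sca-1+) and -3.86 (Sca-1-) for basophil genes, and -2.64 (Sca-1+) and -2.10 (Sca-1-) for granule genes. Normexp with an offset of 50 compresses dim values and gave -2.82 (Sca-1+) and -2.72 (Sca-1-) for basophil genes and -2.10 for granule genes in Sca-1+ samples. Keeping genes well above background on all 8 arrays drops the dimmest, and gave -3.76 for basophil genes in Sca-1+ samples, -1.44 (Sca-1+) and -1.11 (Sca-1-) for granule genes, and a count of 3 genes below by at least 1, against 6 in the main analysis, 4 with no scaling between arrays and 7 with the 75th percentile over probes detected on all arrays. With the mean of both Mpo probes the granule median in Sca-1+ samples was -3.21. Leaving out 1 of replicates 1 to 3 gave -5.23 to -4.61 (Sca-1+) and -4.57 to -3.54 (Sca-1-) for basophil genes, and -2.67 to -2.60 (Sca-1+) and -2.42 to -1.88 (Sca-1-) for granule genes. Values not well above background give an approximate bound rather than measure a level.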
